A study of Bos taurus with 12 samples.

Results

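The 78 genes described here encode subunits of the mitochondrial respiratory chain and of ATP synthase, and were measured in epithelial cells of the bovine oviduct. They were chosen by gene symbol (NDUFA, NDUFB, NDUFC, NDUFS and NDUFV without the NDUFAF assembly factors, SDHA to SDHD, UQCR, CYC1, COX4 to COX8 and ATP5) among probesets that carry 1 symbol, and where several such probesets matched a gene the brightest was taken. They are 78 of the 18010 genes that had a probeset of their own on the array, and comprise 33 genes of complex I, 3 of complex II, 8 of complex III, 17 of complex IV and 17 of complex V. NDUFA4 and NDUFA4L2 were counted with complex IV, to which the NDUFA4 protein is now assigned. Of the 17 genes of complex IV, 7 (COX4I2, COX6A2, COX6B2, COX7A1, COX7B2, COX8B and NDUFA4L2) are alternative isoforms known mainly from tissues such as heart, skeletal muscle, lung and testis or from hypoxic cells.

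Complexes I to IV pass electrons from NADH and succinate to oxygen, and complexes I, III and IV use the energy to pump protons out of the mitochondrial matrix. ATP synthase, or complex V, lets the protons return through a ring of c subunits and makes ATP. In the oviduct, ATP is used by the beating cilia of ciliated cells and by the synthesis of secreted proteins in secretory cells.

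The study compared cyclic Angus heifers in the follicular phase (FP), when estradiol is high, with heifers in the luteal phase (LP), when progesterone is high. The 3 FP heifers received 25 mg of PGF2α (Lutalyse) on day 6 to end the luteal phase, with slaughter after another 36 h, whereas the 3 LP heifers received no PGF2α and were killed on day 11 or 12. Epithelial cells were taken from the ampulla, the part of the oviduct near the ovary, and from the isthmus, the part near the uterus, of each heifer, which gave 12 RNA samples in 4 groups of 3 on 12 arrays. The FP was thus an induced one, different heifers made up the phases, and the ages of the heifers are not given in the labels.

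Values are log2 microarray signals. A difference of 1 on this scale is a doubling of the signal, and since probes differ in brightness a level was compared between samples and never between genes. Over all 26773 probesets the arrays had medians of 7.33 to 7.40 and lower quartiles of 5.68 to 5.82. Markers of the labelled cell type were present: none of the 5 markers of epithelium, the 8 of ciliated cells or the 5 of secretory cells lay at or under the lower quartile in every group. Of the 78 genes, 56 had a mean above 9.19, the upper quartile of all probesets, and 75 had all their group means above the lower quartile. NDUFB4, COX7B2 and NDUFA4L2 lay under it in all 4 groups, so the size of their differences is uncertain.

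Within epithelial cells of the ampulla, 49 of the 78 genes were higher in the FP than in the LP group and 0 were lower (limma, adjusted p under 0.05), against 8.8% of all probesets higher and 7.68% lower. In the isthmus 45 were higher and 0 were lower, against 8.73% and 8.36% of all probesets. With arrays centred on the median of 40 cytosolic ribosomal protein genes (the ribosomal scale) in place of the deposited scale, the ampulla counts became 16 higher and 1 lower (3.44% and 25.7% of all probesets on that scale), and those of the isthmus 11 higher and 10 lower (2.46% and 44.9%). Genes that also reached 1.5-fold (DEGs) and were higher in the FP numbered 16 in the ampulla, against 4.44% of all probesets, and 20 in the isthmus, against 4.4%. No gene was lower by that fold (3.38% and 4.04% of all probesets), but on the ribosomal scale 7 were higher and 0 lower by that fold in the ampulla (2.07% and 13% of all probesets) and 3 higher and 2 lower in the isthmus (1.5% and 22.3%). Without FP heifer 2 the counts of genes higher in the FP were 27 in each tissue, and no gene passed as lower with any heifer left out.

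The median difference of the 78 genes between the phases was 0.44 in the ampulla and 0.39 in the isthmus, while that of all probesets was -0.03 and -0.01. Ampulla differences ran from -0.20 (COX6A2) to 1.29 (ATP5MC1) and isthmus differences from -0.32 (COX7B2) to 1.26 (ATP5MC1), and only ATP5MC1 and NDUFA11 exceeded 1 log2 unit in either tissue. All 3 FP arrays lay above all 3 LP arrays for 62 genes in the ampulla, where this held for 16.6% of all probesets, and for 57 in the isthmus, where it held for 16.5%. Among the 56 bright genes 39 were higher in the ampulla and 36 in the isthmus, against 17.7% and 18.5% of the probesets above the same upper quartile. Across the genes the rank correlation (Spearman rho) of the difference with the mean signal was 0.01 in the ampulla and 0.09 in the isthmus, given as a description over 78 genes that share arrays.

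**Figure D1:**
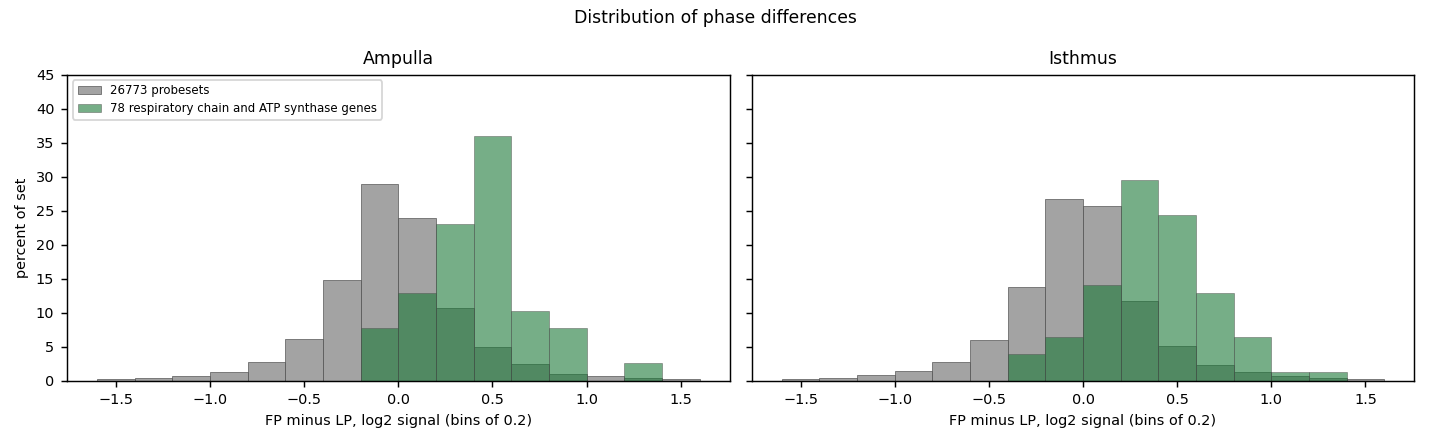
Distribution of the FP minus LP difference in log2 signal (x axis, bins of 0.2) as a percent of each set (y axis), for all 26773 probesets in grey and for the 78 genes in green, in the ampulla and the isthmus. The 78 genes centre on 0.44 and 0.39 and all probesets on -0.03 and -0.01 on the deposited scale; centring on ribosomal protein genes moves both sets down together.

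The choice of scale moved the genes together with all other probesets. Centring on the median of the ribosomal protein genes brought the median of all probesets to -0.30 (ampulla) and -0.40 (isthmus), and the median of the 78 genes to 0.17 and 0.00. On that scale 24 of the 78 genes lay below 0 in the ampulla and 38 in the isthmus, against 6 and 8 on the deposited scale. Among them were 8 of the 45 genes called in the isthmus as deposited (COX7A2L, UQCRH, NDUFA9, NDUFS3, NDUFB11, ATP5F1C, ATP5IF1 and NDUFA6) and 0 of the 49 called in the ampulla, and NDUFS7, not called in the isthmus as deposited, passed there as lower. The distance between the genes and all probesets was 0.47 in the ampulla and 0.40 in the isthmus, which centring cannot alter because it subtracts 1 constant from each array, and 73 and 70 of the 78 genes lay above the median of all probesets. The 40 cytosolic ribosomal protein genes themselves had a median difference of 0.23 and 0.28 on the deposited scale, with 12 and 14 of them higher and 0 lower. Which of the scales is closer to the amount of RNA per cell was not tested.

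**Figure D2:**
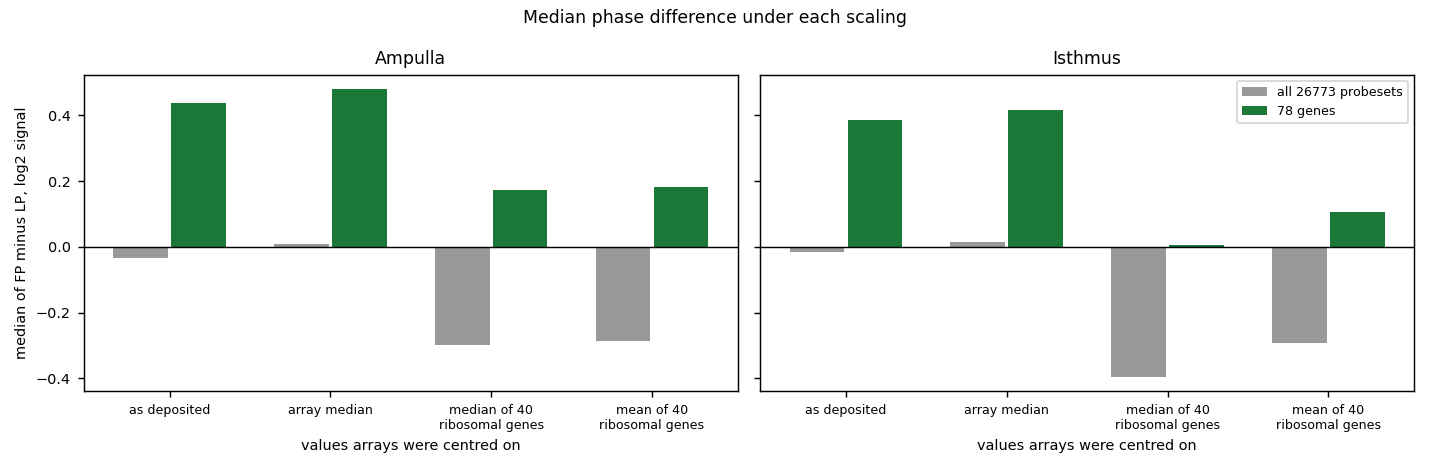
Median FP minus LP difference in log2 signal (y axis) of all probesets (grey bars) and of the 78 genes (green bars) for values as deposited and for arrays centred on their own median, on the median or on the mean of 40 cytosolic ribosomal protein genes (x axis). The gap between grey and green bars, 0.47 in the ampulla and 0.40 in the isthmus, is fixed because centring moves every value of an array alike, while the green bar falls to 0.17 and 0.00 when ribosomal protein genes set the median.

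The same tendency was seen array by array. The median signal over the 78 genes was 10.26, 10.40 and 10.25 in the FP ampulla of heifers 1, 2 and 3, against 9.76, 9.91 and 9.97 for LP heifers. It was 10.12, 10.13 and 10.16 in the FP isthmus and 9.78, 9.84 and 9.91 in the LP isthmus. On the deposited scale no LP array reached any FP array of the same tissue. LP heifer 1 had the lowest value of its group in 63 of the 78 genes in the ampulla and 53 in the isthmus, and LP heifer 3 the highest in 55 and 48. In the FP ampulla heifer 2 was highest in 46 genes and heifer 3 lowest in 51.

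**Figure D3:**
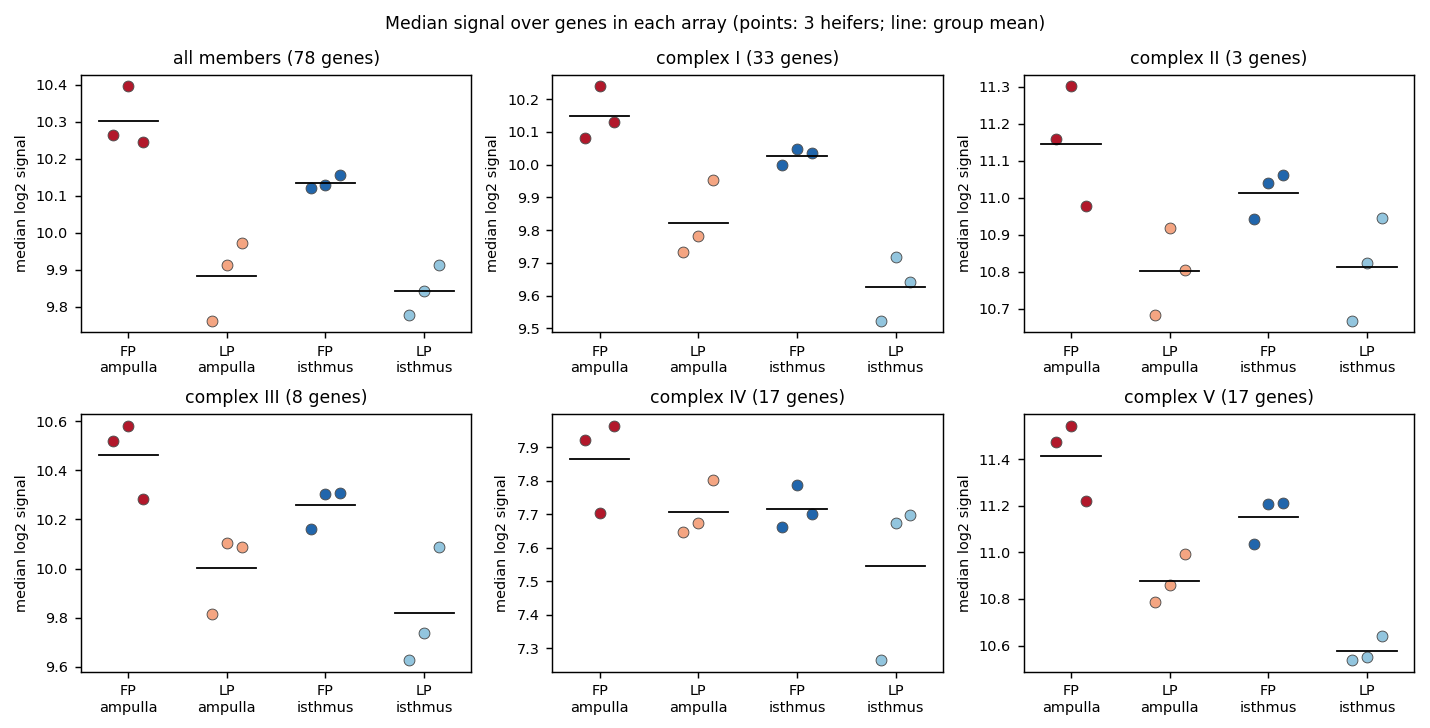
Median log2 signal over the genes of each complex (y axis) in the 4 groups (x axis), with 1 point for each of 3 heifers and a line at the group mean. Over all 78 genes the FP arrays lie between 10.12 and 10.40 and the LP arrays between 9.76 and 9.97 on the deposited scale, and FP and LP arrays overlap in the isthmus for complex II and in both tissues for complex IV.

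Both tissues shared most of the genes that passed. Of the 78 genes, 38 were higher in the FP in both tissues, where 5.43% of all probesets were, 11 in the ampulla only, 7 in the isthmus only and 22 in neither. The 38 are 77.6% of the genes called in the ampulla and 84.4% of those called in the isthmus, and 12 were DEGs in both (2.51% of all probesets). The rank correlation of both differences over the 78 genes was 0.77, between comparisons that share no array but were made in the same 6 heifers. A difference between the tissues in the phase response was tested directly as an interaction, and 0 of the 78 genes passed (limma, smallest adjusted p 0.401, against 0.0149% of probesets higher and 0.138% lower). An unadjusted p under 0.05 was seen for 6 of the 78 genes and for 2606 of all 26773 probesets, so the genes did not exceed the share of all probesets. Unmoderated contrasts were also read after an F-test over the groups, where the F-test was adjusted but the contrast p was not. By that rule 4 genes counted, 1 with the larger FP excess in the isthmus and 3 with the larger one in the ampulla. The share of all probesets by that rule was not counted.

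The smallest interaction p-values, none of which passed after adjustment, belonged to NDUFS7, NDUFS5, ATP5F1D, NDUFB11 and ATP5MC2, whose FP minus LP difference was smaller in the isthmus. NDUFS7, which holds an iron-sulfur cluster at the end of the peripheral arm of complex I, differed between the phases by 0.45 (SE 0.09) in the ampulla and 0.10 (SE 0.09) in the isthmus. For ATP5F1D, the δ subunit in the central stalk of ATP synthase, the values were 0.49 and 0.07 (SE 0.12 each), and the difference between tissues of -0.42 (SE 0.17) had an adjusted p of 0.439 (limma).

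Complex I, the NADH dehydrogenase at which most electrons enter the chain, had 26 of its 33 genes higher in the FP ampulla and 23 in the FP isthmus, with medians of 0.50 and 0.40, while on the ribosomal scale the ampulla had 5 higher and 0 lower and the isthmus 5 higher and 4 lower (medians 0.23 and 0.02). NDUFA11, a subunit of its membrane arm, gave 9.94, 10.00 and 9.50 in the FP against 8.29, 8.72 and 8.60 in the LP ampulla, and 9.86, 9.82 and 10.00 against 8.44, 8.99 and 8.92 in the isthmus. The lowest FP array of each tissue lay above the highest LP array, and the differences of 1.28 and 1.11 (SE 0.18 each, 2.42- and 2.16-fold) had adjusted p-values of 0.00119 and 0.00237 (limma). NDUFS8, a core subunit with iron-sulfur clusters, read 10.73, 10.88 and 10.74 against 9.82, 9.99 and 10.09 in the ampulla and 10.69, 10.67 and 10.82 against 9.82, 10.08 and 10.10 in the isthmus. Its FP values were tightly grouped and separate from the LP values, with differences of 0.82 and 0.72 (SE 0.10 each, limma adjusted p = 0.000691 and 0.00133).

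**Figure D4:**
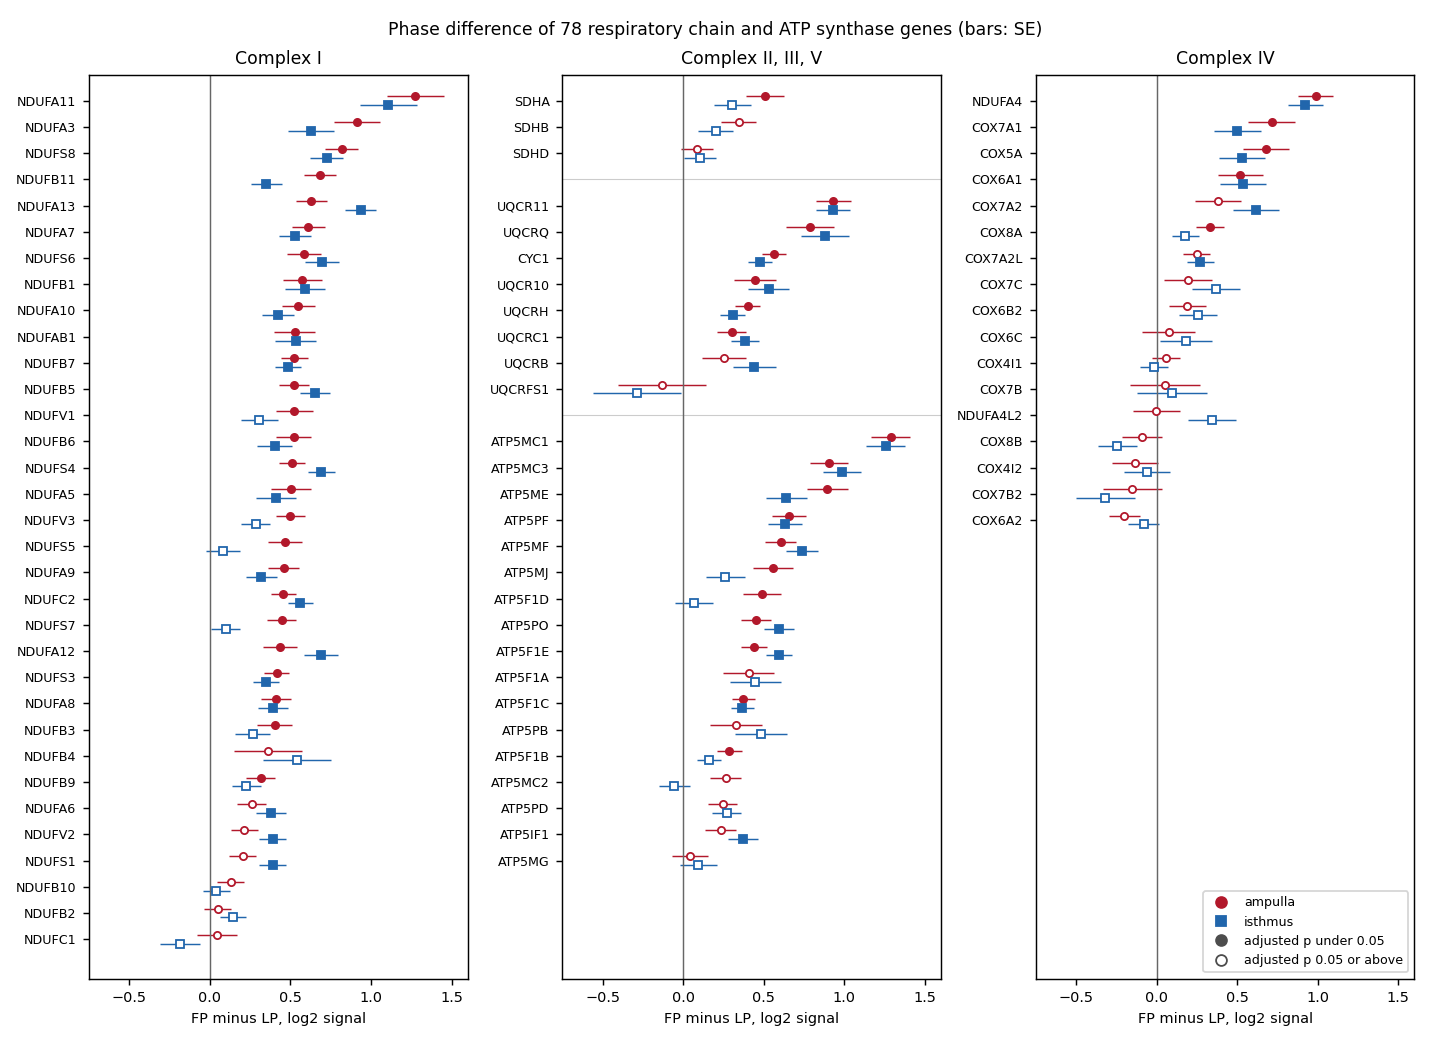
FP minus LP difference in log2 signal (x axis) of each of the 78 genes (y axis), ordered by complex and by the difference in the ampulla, with circles for the ampulla, squares for the isthmus, bars for 1 SE and filled symbols for an adjusted p under 0.05. On the deposited scale all filled symbols lie to the right of 0, where the most distant are ATP5MC1 at 1.29 and 1.26 and NDUFA11 at 1.28 and 1.11; on the ribosomal scale 1 gene of the ampulla and 10 of the isthmus passed to the left.

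Of the 6 core subunits of complex I that were measured, 4 passed in each tissue, and NDUFS3 and NDUFS8 passed in both. NDUFV1, which binds NADH, and NDUFS7 passed in the ampulla only (0.52 and 0.45) and gave 0.31 and 0.10 in the isthmus. NDUFV2 and NDUFS1, which carry iron-sulfur clusters, passed in the isthmus only (0.39 each), and their ampulla differences were 0.21 and 0.20. None of these 4 differed between tissues in the interaction test.

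Among the supernumerary subunits of complex I, NDUFA3, NDUFA13, NDUFA7 and NDUFB11 were DEGs of the ampulla, with differences of 0.91, 0.63, 0.61 and 0.69. NDUFA13, NDUFS6, NDUFS4, NDUFA12, NDUFB5, NDUFA3 and NDUFB1 were DEGs of the isthmus, at 0.94, 0.70, 0.69, 0.69, 0.65, 0.63 and 0.59. NDUFA3 lost its call in the isthmus without FP heifer 2, FP heifer 3 or LP heifer 2 (limma adjusted p up to 0.0681). NDUFS4, an accessory subunit whose loss in people causes Leigh syndrome, read 11.19, 11.18 and 10.99 in the FP against 10.55, 10.61 and 10.66 in the LP ampulla, and 10.87, 11.03 and 10.95 against 10.28, 10.20 and 10.29 in the isthmus. Its groups did not overlap in either tissue (0.51 and 0.69, SE 0.08 each, limma adjusted p = 0.00263 and 0.000549). NDUFB10, NDUFB2 and NDUFC1, picked after their values were seen, differed by 0.13, 0.05 and 0.04 in the ampulla and 0.04, 0.14 and -0.19 in the isthmus, and passed in neither.

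Complex II, succinate dehydrogenase, which also belongs to the citric acid cycle, was represented by 3 genes, whose median differences of 0.34 and 0.20 became 0.08 and -0.18 on the ribosomal scale. SDHA, the flavoprotein that oxidizes succinate, read 9.82, 9.94 and 9.82 in the FP against 9.14, 9.54 and 9.38 in the LP ampulla, with no overlap (0.51, SE 0.12, limma adjusted p = 0.0146), though the call was lost without FP heifer 1, FP heifer 2 or LP heifer 1 (up to 0.0843). In the isthmus its FP values of 9.50, 9.58 and 9.60 lay just above LP values of 9.11, 9.20 and 9.46 and the difference of 0.30 (SE 0.12) did not pass (adjusted p = 0.104). The iron-sulfur subunit SDHB gave 0.34 (SE 0.11, limma adjusted p = 0.0542) and 0.20, and the membrane anchor SDHD 0.09 and 0.11.

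In complex III, which passes electrons from ubiquinol to cytochrome c, 6 of 8 genes were higher in the FP ampulla and 7 in the FP isthmus, with medians of 0.42 and 0.46, and on the ribosomal scale 3 and 2 were higher and 0 lower (0.16 and 0.08). UQCR11, a small subunit, gave 11.50, 11.62 and 11.51 in the FP against 10.41, 10.67 and 10.75 in the LP ampulla, and 11.17, 11.23 and 11.34 against 10.26, 10.23 and 10.47 in the isthmus. FP and LP arrays were clearly apart in each tissue, and both differences were 0.93 (SE 0.11, 1.91- and 1.90-fold, limma adjusted p = 0.000384 and 0.000446). UQCRQ, also a small subunit, was the other DEG of the complex (0.79 and 0.88, SE 0.15 each).

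CYC1, the heme protein that hands electrons to cytochrome c, separated the phases in both tissues. Its values were 11.33, 11.48 and 11.42 in the FP against 10.80, 10.89 and 10.85 in the LP ampulla, and 11.26, 11.32 and 11.29 against 10.71, 10.87 and 10.84 in the isthmus. The FP arrays were all higher, by 0.56 and 0.48 (SE 0.08 each, limma adjusted p = 0.000939 and 0.00213), which is below 1.5-fold in both tissues. UQCRC1, a core protein, passed at 0.30 and 0.38. UQCRFS1, the Rieske iron-sulfur protein, was the exception and overlapped between the phases: 8.47, 9.40 and 9.38 against 9.21, 9.00 and 9.42 in the ampulla and 9.09, 8.69 and 8.98 against 8.98, 8.94 and 9.71 in the isthmus. Its differences of -0.13 and -0.29 (SE 0.27 each) had the widest error of the complex.

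Complex IV, cytochrome c oxidase, which reduces oxygen, had 5 of 17 genes higher in the ampulla and 6 in the isthmus. Its medians of 0.19 and 0.26 turned to -0.075 and -0.124 on the ribosomal scale, where the ampulla had 3 higher and 1 lower and the isthmus 1 higher and 4 lower. Without the 7 alternative isoforms, 4 of 10 and 5 of 10 genes were higher on the deposited scale, with medians of 0.29 and 0.32, the latter turning to -0.06 on the ribosomal scale. NDUFA4 was its leading gene, at 10.14, 10.07 and 10.06 in the FP against 8.94, 9.05 and 9.32 in the LP ampulla, and at 9.84, 9.83 and 9.74 against 8.72, 8.93 and 8.99 in the isthmus. The FP arrays of a tissue were close together and lay above every LP array, and the differences were 0.99 and 0.92 (SE 0.11 each, limma adjusted p = 0.000294 and 0.000515). COX5A, an early-assembling subunit, read 10.17, 10.40 and 10.09 against 9.39, 9.51 and 9.72 in the ampulla and 9.89, 10.07 and 10.16 against 9.28, 9.47 and 9.77 in the isthmus. Its groups did not overlap (0.68 and 0.53, SE 0.14 each, limma adjusted p = 0.00958 and 0.0278), but the ampulla call was lost without FP heifer 2 (0.0636) and the isthmus call held in 1 of 6 fits that left out a heifer.

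COX4I1, the common form of subunit 4, did not separate the phases. It gave 9.90, 9.99 and 9.81 in the FP against 9.69, 9.87 and 9.96 in the LP ampulla, and 9.87, 9.81 and 9.80 against 9.80, 9.84 and 9.89 in the isthmus, and the differences were 0.06 and -0.02 (SE 0.09 each). COX6A1 passed in both tissues (0.52 and 0.53), COX8A in the ampulla only (0.33, with 0.18 in the isthmus), and COX7A2 and the supercomplex factor COX7A2L in the isthmus only (0.62 and 0.27, with 0.38 and 0.25 in the ampulla), and the isthmus call of COX7A2L held in none of the 6 fits that left out a heifer.

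The 7 alternative isoforms had medians of -0.09 and -0.06, and COX7A1 alone passed, in both tissues, while on the ribosomal scale the ampulla had 1 higher and 1 lower and the isthmus 0 higher and 3 lower. COX7A1, the heart and skeletal muscle form of subunit 7a, read 7.99, 8.51 and 8.48 in the FP against 7.65, 7.62 and 7.58 in the LP ampulla, and 7.66, 7.69 and 7.93 against 7.11, 7.46 and 7.21 in the isthmus. FP arrays were above LP arrays in both tissues (0.71 and 0.50, SE 0.15 each, limma adjusted p = 0.00856 and 0.0401). The ampulla call was lost without FP heifer 2 (0.0567), and the isthmus call held in 1 of 6 fits that left out a heifer. Of 5 markers of smooth muscle 0 passed as higher in either tissue and 1 was lower, MYH11, a smooth muscle myosin (-1.01 in the isthmus, limma adjusted p = 0.00221), while DES gave 0.34 and 0.26 and did not pass. The log2 of their summed signal was 8.23 to 8.72 in the FP against 8.36 to 8.45 in the LP ampulla and 8.55 to 8.84 against 8.92 to 9.03 in the isthmus, and their part in the differences of COX7A1 was not tested.

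The other 6 isoforms gave ampulla differences of -0.20 to 0.19 and isthmus differences of -0.32 to 0.34, and none passed. For 4 of them (COX4I2, COX6A2, COX8B and NDUFA4L2) and for COX7A1 the ratio to the common form was taken within each array, a ratio that no centring of arrays alters. The log2 ratio of NDUFA4L2 to NDUFA4 was lower in the FP by 0.99 in the ampulla and 0.58 in the isthmus, that of COX6A2 to COX6A1 by 0.72 and 0.62 and that of COX8B to COX8A by 0.42 in each, with no overlap between 3 FP and 3 LP arrays (exact permutation p = 0.1, two-sided, the smallest that 3 against 3 allow). NDUFA4L2 was among the dim genes named above, so the size of its ratio is uncertain. COX8B lay only a little above the lower quartiles of the arrays in the ampulla, so its ratio there is uncertain too. None of these isoforms passed by itself, while NDUFA4 and COX6A1 passed in both tissues and COX8A in the ampulla. The ratios are thus not separate from those calls. The ratios of COX7A1 to COX7A2 and of COX4I2 to COX4I1 overlapped between the phases in both tissues (exact permutation p = 0.2 to 0.9).

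In complex V, 11 of 17 genes were higher in the FP ampulla and 9 in the FP isthmus, with medians of 0.44 and 0.45, and on the ribosomal scale 5 were higher and 0 lower and 3 higher and 2 lower (0.17 and 0.07). Its leading genes encode the c subunit, whose 3 genes (ATP5MC1, ATP5MC2 and ATP5MC3) differ in their import sequences and yield the same mature protein. ATP5MC1 gave 11.46, 11.54 and 11.20 in the FP against 9.92, 10.13 and 10.29 in the LP ampulla, and 10.98, 11.09 and 11.20 against 9.74, 9.84 and 9.91 in the isthmus. Every FP array lay well above every LP array of its tissue, and the differences of 1.29 and 1.26 (SE 0.12 each, 2.44- and 2.39-fold) had the smallest adjusted p-values of all 78 genes (limma, 0.00012 and 0.000212).

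ATP5MC3 followed at 9.92, 10.06 and 9.91 against 8.93, 9.02 and 9.22 in the ampulla and 9.62, 9.67 and 9.78 against 8.53, 8.64 and 8.93 in the isthmus. These groups too were separate (0.91 and 0.99, SE 0.12 each, limma adjusted p = 0.000745 and 0.000518). ATP5MC2 read 10.24, 10.32 and 10.20 against 9.96, 9.96 and 10.05 in the ampulla, and 10.28, 10.17 and 10.17 against 10.05, 10.41 and 10.32 in the isthmus, where the phases overlapped. Its differences of 0.26 and -0.06 (SE 0.10 each, limma adjusted p = 0.0946 and 0.763) did not pass.

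The 3 genes of the c subunit thus differed by unequal amounts. Within an array, the log2 ratio of ATP5MC1 to ATP5MC2 was 1.00 to 1.23 in the FP ampulla against -0.04 to 0.24 in the LP ampulla, and 0.70 to 1.03 in the FP isthmus against -0.57 to -0.31 in the LP isthmus. No ratio of an FP array lay within the LP range, and the mean ratio differed by 1.02 and 1.31 (exact permutation p = 0.1, two-sided, the smallest possible). That of ATP5MC3 to ATP5MC2 differed by 0.64 and 1.04 and that of ATP5MC1 to ATP5MC3 by 0.38 and 0.27, also without overlap.

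**Figure D5:**
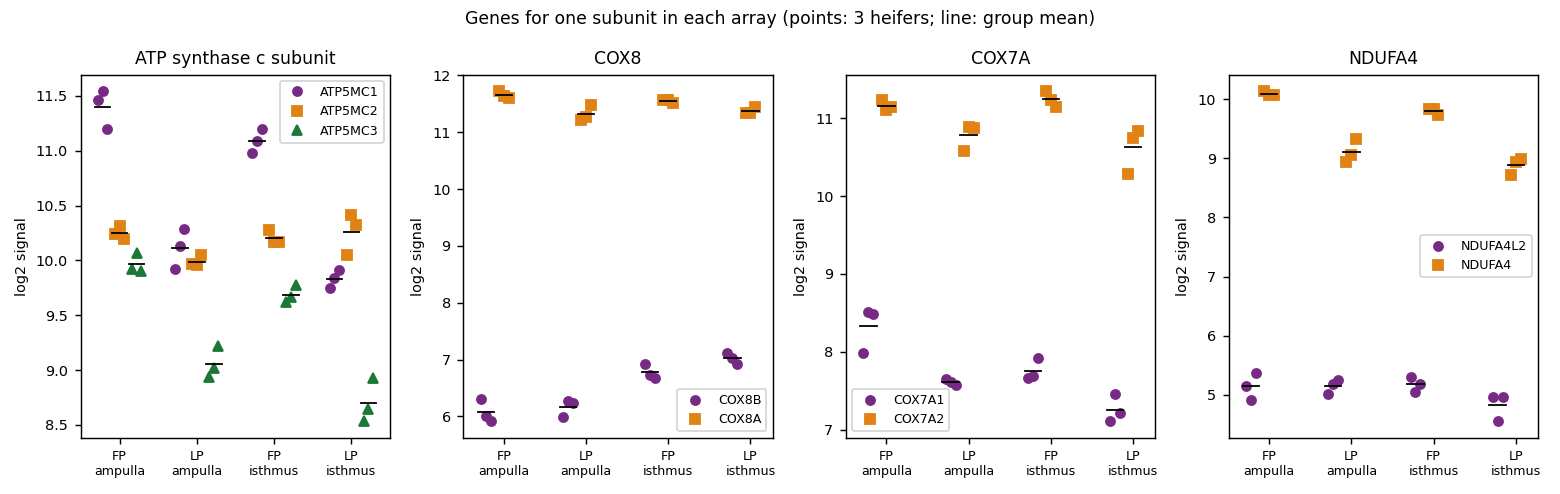
Log2 signal (y axis) in the 4 groups (x axis) of genes that encode forms of the same subunit, with 1 point for each of 3 heifers and a line at the group mean. ATP5MC1 and ATP5MC3 lie higher in the FP than in the LP arrays of both tissues and ATP5MC2 overlaps in the isthmus, and COX8B is higher in the isthmus than in the ampulla; brightness cannot be compared between genes, and on the ribosomal scale ATP5MC1 and ATP5MC3 kept their direction.

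Of the 5 subunits of the catalytic head and central stalk, ATP5F1B, ATP5F1C, ATP5F1D and ATP5F1E passed in the ampulla (0.29, 0.37, 0.49 and 0.44) and ATP5F1C and ATP5F1E in the isthmus (0.37 and 0.59). ATP5F1B, the catalytic β subunit, read 12.44, 12.42 and 12.42 in the FP against 12.12, 12.06 and 12.24 in the LP ampulla, a small difference without overlap (limma adjusted p = 0.0272) whose call held in 1 of 6 fits that left out a heifer. The α subunit ATP5F1A gave 0.41 and 0.45 with a wider error (SE 0.16 each) and did not pass. In the peripheral stalk and membrane parts, ATP5ME, ATP5PF and ATP5MF were DEGs in both tissues (0.89, 0.66 and 0.60 in the ampulla, 0.64, 0.63 and 0.74 in the isthmus), and ATP5PO, which ties the head to the peripheral stalk, in the isthmus (0.59, and 0.45 in the ampulla). ATP5IF1, the inhibitor that blocks reverse rotation of the enzyme, was higher in the FP isthmus (0.37, limma adjusted p = 0.0215) and gave 0.23 in the ampulla. ATP5MG, chosen after its values were seen, differed by 0.04 and 0.09.

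The tissues were then compared within each phase. In the LP, 8 of the 78 genes were lower in the isthmus than in the ampulla (limma; 6.04% of all probesets) and 1 was higher (6.22%), whereas on the ribosomal scale 0 were lower (1.58% of all probesets) and 37 higher (51.7%). Among the 56 bright genes 6 (10.7%) were lower on the deposited scale, near the 11.4% of probesets above the same upper quartile. The 8 genes were NDUFA13, NDUFC2 and NDUFS4 of complex I, UQCRB of complex III, COX7C of complex IV and ATP5F1E, ATP5PD and ATP5PO of complex V. They differed by -0.34 to -0.53. The 3 LP isthmus arrays lay below the 3 LP ampulla arrays for 21 of the 78 genes and for 15.3% of all probesets. Among bright ones this held for 14 of the 56 genes and for 1820 of 6693 probesets above the same upper quartile, a similar share. With heifer as a fixed block, which pairs the tissues by animal number, 2 were lower and 1 higher, and without LP heifer 3 none of the 78 was lower. In the FP 0 genes were lower (1.16% of all probesets) and 1 was higher (1.87%). Yet the 3 FP isthmus arrays lay below the 3 FP ampulla arrays for 29 of the 78 genes, and above them for 2. Of all 26773 probesets, 3504 lay below in this way. Among bright ones this held for 23 of the 56 genes and for 1466 of 6693 probesets, a larger share of the genes. Medians over the 78 genes were -0.11 in the LP and -0.13 in the FP but 0.32 and 0.18 on the ribosomal scale.

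The gene that was higher in the isthmus in both phases was COX8B, the heart and muscle form of subunit 8. It read 7.11, 7.03 and 6.92 in the LP isthmus against 6.00, 6.26 and 6.24 in the LP ampulla, and 6.92, 6.73 and 6.68 in the FP isthmus against 6.31, 6.00 and 5.92 in the FP ampulla. All isthmus arrays were above all ampulla arrays, by 0.85 in the LP and 0.70 in the FP (SE 0.12 each, limma adjusted p = 0.00159 and 0.0144). Without FP heifer 2 or FP heifer 3 the FP call was lost. Between the phases it differed by -0.09 and -0.24. Markers of other cell types also differed between the tissues on the deposited scale. Of all probesets, 6.22% were higher and 6.04% lower in the LP isthmus, and 1.87% and 1.16% in the FP isthmus. Of 5 markers of smooth muscle, 1 was higher in the LP isthmus (MYH11, 1.36) and 0 in the FP isthmus, with summed log2 signals of 8.92 to 9.03 against 8.36 to 8.45 in the LP and 8.55 to 8.84 against 8.23 to 8.72 in the FP. Of 6 of fibroblasts, 2 were higher in the LP isthmus and 1 in the FP isthmus, with 9.79 to 12.56 against 9.68 to 10.23 and 11.27 to 12.92 against 9.38 to 9.99. Of 8 of ciliated cells, 5 were lower in the LP isthmus and 0 in the FP isthmus. The 3 isthmus arrays nevertheless lay below the 3 ampulla arrays for 6 of these 8 in each phase. This held for 4091 (LP) and 3504 (FP) of all 26773 probesets. Their part in the differences between tissues was not tested.

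Genes that act with the chain were read from lists of the same kind. Of all probesets, 8.8% were higher and 7.68% lower in the FP ampulla, and 8.73% and 8.36% in the FP isthmus. On the ribosomal scale these shares were 3.44% and 25.7%, and 2.46% and 44.9%. Among 17 genes of mobile carriers and exchangers, 4 were higher and 1 lower in the ampulla in the FP, against 5 and 1 in the isthmus, and on the ribosomal scale 2 and 2 against 1 and 5. The ADP/ATP exchanger SLC25A5 (1.22 and 1.06), cytochrome c (CYCS, 1.01 and 0.58) and the phosphate carrier SLC25A3 (0.58 and 0.55) were higher in both, and COQ8A, a kinase-like protein of ubiquinone synthesis, was lower (-0.50 and -0.57). On the ribosomal scale SLC25A5 was still higher in both tissues and CYCS in the ampulla, COQ8A was lower in both, and SLC25A3 passed in neither. Of 18 genes of the citric acid cycle and pyruvate dehydrogenase, 10 were higher in the ampulla and 6 in the isthmus and 0 lower, but 3 higher in the ampulla and 2 lower in the isthmus on the ribosomal scale. On the deposited scale citrate synthase CS differed by 0.92 and 0.56, SUCLG1 by 0.65 and 0.67 and PDHB by 0.50 and 0.55. Of 75 mitochondrial ribosomal protein genes, 35 and 26 were higher and 0 lower (medians 0.34 and 0.26), but on the ribosomal scale the ampulla had 9 higher and 3 lower and the isthmus 2 higher and 15 lower. In each of these lists the share of lower genes on the ribosomal scale was under that of all probesets.

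Assembly factors, which build the complexes, were read in the same way. Of all probesets, 8.8% were higher in the FP ampulla and 8.73% in the FP isthmus, and 17.7% and 18.5% of those above the upper quartile. On the ribosomal scale 25.7% and 44.9% of all probesets were lower, a larger share than in either list of assembly factors. Of 15 for complex I, 3 (20%) rose and 1 fell in the ampulla and 4 (26.7%) rose and 0 fell in the isthmus, against 2 and 3 and 1 and 6 on the ribosomal scale. On the deposited scale NDUFAF4 differed by 0.96 and 0.65, NDUFAF8 by 0.71 and 0.70 and NDUFAF7 by -0.53 and -0.35 (limma adjusted p = 0.0582 in the isthmus). Of 32 for complexes II to V, 5 (15.6%) and 8 (25%) were higher and 0 lower, against 2 higher and 4 lower and 1 higher and 9 lower on the ribosomal scale. They were led by BCS1L, which inserts the Rieske protein UQCRFS1 into complex III (1.00 and 0.85, SE 0.12 each, limma adjusted p = 0.000398 and 0.00104). Of 18 regulators of mitochondrial biogenesis, 2 (11.1%) rose and 3 (16.7%) fell in the ampulla against 3 and 2 in the isthmus, against a background of 8.8% and 7.68% and of 8.73% and 8.36% of all probesets. On the ribosomal scale none rose and 8 and 13 fell, where 25.7% and 44.9% of all probesets fell. NRF1, a transcription factor known to act at promoters of respiratory chain genes, was lower in the FP (-0.63 and -0.49, SE 0.08 each, limma adjusted p = 0.000582 and 0.00227), and the coactivator PPRC1 was higher (0.54 and 0.59) but passed in neither tissue on the ribosomal scale, where NRF1 was still lower. TFAM, which binds and packages mitochondrial DNA, differed by 0.03 and 0.18 and the coactivator PPARGC1A by -0.83 and -0.42 (SE 0.35), and neither passed, but on the ribosomal scale PPARGC1A was lower in both tissues (-1.09 and -0.81, limma adjusted p = 0.0219 and 0.0458). With arrays centred on the mean of the ribosomal protein genes, PPARGC1A did not pass in the isthmus (-0.70, limma adjusted p = 0.109).

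Some markers of immune cells were lower in the FP. On the deposited scale 7.68% of all probesets were lower in the FP ampulla and 8.36% in the FP isthmus, and 8.8% and 8.73% were higher. For counts of lower markers on the ribosomal scale, the background was 25.7% of all probesets in the ampulla and 44.9% in the isthmus. Of 9 T and NK cell markers, 3 were lower in the FP ampulla and 1 in the FP isthmus (9 and 7 on the ribosomal scale), and the log2 of their summed signal was 9.64 to 9.99 in the FP and 10.64 to 12.43 in the LP ampulla, and 9.59 to 10.14 and 10.50 to 11.78 in the isthmus. Of 8 markers of macrophages and dendritic cells, 4 were lower in each tissue (6 and 5 on the ribosomal scale), with summed signals of 11.13 to 11.89 against 11.98 to 12.61 and 10.86 to 11.42 against 11.66 to 12.60. The T and NK cell share called in the isthmus (11.1%) was near that of all probesets. There the deposited difference was above 0 for 1 T and NK cell marker (GZMB, 0.06) and for 3 of macrophages and dendritic cells. Of 5 epithelial markers, the keratins KRT8, KRT18 and KRT19 were higher in the FP in both tissues, and CDH1 was lower in the isthmus, though on the ribosomal scale KRT8 alone was higher, in the ampulla, and 2 markers were lower in each tissue. Their log2 summed signals were 13.62 to 13.70 against 13.47 to 13.66 and 13.64 to 13.84 against 13.71 to 13.75. GZMA, CD163 and ACTG2 lay at or under the lower quartile in all groups. The part of these markers in the differences of the 78 genes was not tested, and in bulk RNA fewer cells of a type and less RNA per cell cannot be told apart.

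Of 8 markers of ciliated cells, 2 were lower in the FP ampulla, and 1 was higher and 1 lower in the FP isthmus (0 higher, and 2 and 3 lower, on the ribosomal scale), with summed signals of 14.72 to 14.79 in the FP against 14.84 to 14.92 in the LP ampulla and 14.59 to 14.64 against 14.47 to 14.70 in the isthmus. Of 5 of secretory cells, the FP ampulla had 1 higher and 1 lower and the FP isthmus had 1 higher (ribosomal scale: ampulla 0 higher and 1 lower, isthmus 1 of each), with 14.34 to 14.41 against 13.77 to 14.50 and 14.28 to 14.35 against 12.43 to 14.26. The 4 of B and plasma cells, 6 of fibroblasts and 5 of endothelium passed in neither tissue, and of 4 erythrocyte markers HBA was higher in the FP ampulla; on the ribosomal scale these lists held no marker that was higher, and lower were 3 and 3 of B and plasma cells, 0 and 1 of fibroblasts, 1 and 1 of endothelium and 1 and 2 of erythrocytes in the ampulla and the isthmus. Summed signals of B and plasma cell markers were 8.09 to 8.34 in the FP against 8.88 to 10.01 in the LP ampulla and 8.09 to 8.14 against 8.33 to 9.52 in the isthmus, without overlap. The background of lower probesets on the ribosomal scale was again 25.7% in the ampulla and 44.9% in the isthmus. On the deposited scale 7.68% and 8.36% of all probesets were lower and 8.8% and 8.73% higher. The part of these markers in the differences was not tested either.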

How the data were processed

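RNA of epithelial cells from the ampulla and the isthmus of 6 heifers was hybridized by the authors to 12 Affymetrix Bovine Gene 1.0 ST arrays, 1 per sample, without pooling. The authors deposited log2 values made by RMA (background correction, quantile normalization, median polish), and the submitters' processing notes name GCOS 1.2 and Partek 6.4. Quantile normalization gives each array the same overall distribution, so a change shared by most genes would be removed, and scales set by 40 cytosolic ribosomal protein genes were tried for this reason. The small number of arrays limits precision, and no detection calls were used. The genome build of the array design is not given in the sources used here, so no position or sequence is printed.

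Probesets were named from the platform annotation: 18457 had 1 symbol, 688 several and 7628 none, and those with several were left out of the 78 genes. In R 4.3.3, limma 3.58.1 fitted 1 mean per group to the 12 arrays (8 residual degrees of freedom, empirical Bayes). The 5 contrasts were FP minus LP in each tissue, the difference of these, and isthmus minus ampulla in each phase. Benjamini-Hochberg adjustment ran over all 26773 probesets. Passed, higher and lower mean an adjusted p under 0.05, and a DEG was also at least 1.5-fold changed. Figures were drawn in Python 3.11.15 with matplotlib 3.10.9. The test was checked on simulated data.

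Named genes were the DEGs, per complex the 3 others with the smallest p, the core subunits, alternative isoforms and c subunit genes, per complex the leading gene between tissues, the 5 smallest interactions, all genes called between tissues and up to 3 called genes of each list. Further genes are named for their roles or as said. The genes and lists were chosen with earlier results of these data known.

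Animal numbers in the titles were taken to pair the tissues of a heifer. After removal of group means, same-number arrays correlated at 0.26, 0.22 and 0.37 in the LP (different numbers -0.22 to -0.05) and at -0.05, -0.17 and -0.10 in the FP (different numbers -0.15 to 0.24). Same-number arrays of the FP were thus no more alike than others, and the FP pairing is uncertain. Fits without an FP heifer leave out the arrays with that number, which may come from different animals. Alternatives were a heifer block, unmoderated contrasts, a fit of 2 groups, trended moderation, other centring, leaving out dim probesets, averaging probesets and leaving out each heifer.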

Additional observations from a re-analysis of the deposited data

How the results depend on the processing

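Without 1 heifer at a time, the genes higher in the FP numbered 27 to 47 in the ampulla and 27 to 39 in the isthmus, those at least 1.5-fold higher 13 to 22 and 16 to 22, and the lowest counts of higher genes, 27 in each tissue, came without FP heifer 2. Genes lower in the isthmus numbered 0 to 7 in the LP and 0 to 1 in the FP, and those higher there 1 and 0 to 1. Of the genes called, 25 of 49 in the ampulla and 24 of 45 in the isthmus passed in all 6 fits, 2 of the isthmus calls (COX7A2L and NDUFA9) passed in none, and all called genes kept their sign. With heifer as a random replicate block (consensus correlation 0.088) the phase counts were 49 and 45, and 12 genes in the LP and 1 in the FP were lower in the isthmus, and as a fixed block 2 in the LP were. Phase contrasts lie between heifers, so no fixed block could be fitted for them. Unmoderated contrasts after an F-test (F-test adjusted, contrast p under 0.05 without adjustment) gave 1 higher and 3 lower in the interaction, 3 higher and 19 lower in the isthmus of the LP and 23 lower in that of the FP. A fit of only the 2 groups gave 28 higher in the FP isthmus, and between tissues 1 lower in the LP and 0 higher in the FP. Trended and robust moderation, and the fit without dim probesets, gave 1 gene lower in the isthmus in the FP. Centring on the median of ribosomal protein genes gave 16 higher and 1 lower in the ampulla (7 at least 1.5-fold higher, median 0.173) and 11 higher and 10 lower in the isthmus (3 higher and 2 lower by 1.5-fold, median 0.004), with 37 higher and 0 lower between tissues in the LP. Centring on their mean, chosen after seeing the data, gave 23 higher and 1 lower (7 by 1.5-fold, median 0.183), 18 higher and 7 lower (7 higher and 1 lower by 1.5-fold, median 0.107), and 17 higher and 0 lower in the LP. On the former scale 24 and 38 of the 78 genes lay below 0, against 6 and 8. NDUFS7, not called in the isthmus as deposited, passed there as lower (-0.281, limma adjusted p = 0.0479), and of the genes called the sign turned in the isthmus for COX7A2L (-0.109), UQCRH (-0.074), NDUFA9 (-0.062), NDUFS3 (-0.033), NDUFB11 (-0.030), ATP5F1C (-0.014), ATP5IF1 (-0.009) and NDUFA6 (-0.002), and between LP tissues for ATP5F1E (0.078), ATP5PD (0.082), ATP5PO (0.060), NDUFC2 (0.090) and NDUFS4 (0.077); on the latter COX7A2L turned in the isthmus (-0.006). The cause of these changes was not tested.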

Other observations

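The array also held 12 probesets whose annotation pairs a subunit gene with other symbols, which were not among the 78 genes because their signal cannot be given to 1 gene. Of these, 6 were higher in the FP ampulla and 9 in the FP isthmus (limma, adjusted p under 0.05) and none was lower, against 8.8% and 8.73% of all probesets higher. They stand for fewer genes than 12, since several list ATP5MK and 2 list COX7B. The probesets that list SDHC (0.69 and 0.71), NDUFB8 (0.64 and 0.72) and COX7C (0.28 and 0.50) passed in neither tissue. The probeset that lists COX5B, a zinc-binding subunit of complex IV, differed by 0.90 and 0.93 (SE 0.21 each, limma adjusted p = 0.0145 and 0.0117). The one that lists COX6B1 differed by 0.59 and 0.71, and 2 that list COX7B differed by 0.72 and 0.63 in the ampulla and 0.74 in the isthmus, while the probeset of COX7B alone gave 0.05 and 0.09 (SE 0.22). A second, dimmer probeset of ATP5F1E, the ε subunit, gave -0.01 and 0.03 (SE 0.13 each) where the brighter one gave 0.44 and 0.59.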
